A study of Homo sapiens with 5 samples.

Results

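The replication-dependent histone genes encode the bulk of the H1, H2A, H2B, H3 and H4 proteins that package DNA as it is copied. They were taken here as the protein-coding RefSeq genes with the symbols H1-1 to H1-6, or with H2AC, H2BC, H3C or H4C followed by a number. This gave 70 of 20037 protein-coding genes on the assembled chromosomes of GRCh38.p14: 6 for H1, 17 for H2A, 19 for H2B, 13 for H3 and 15 for H4. On chromosome 6 lay 55 of them, on chromosome 1 lay 13, and H4C16 (chromosome 12) and H2BC12L (chromosome 21) stood alone.

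Peak lists came from chromatin immunoprecipitation followed by sequencing (ChIP-seq) of MIA PaCa-2 cells, a line long established from a human pancreatic carcinoma, with 1 library per group. The proteins mapped in parental cells under normal culture were the transcription factor MYC and 2 subunits, MED17 and MED30, of Mediator, the large complex that links transcription factors with RNA polymerase II. MYC was also mapped in a MIA PaCa-2 line with a doxycycline-inducible hairpin against MED30 (shMED30), kept without doxycycline or given it for 3 days. Whether that line is a single clone is not given in the sources used here. Before the MED17 and MED30 libraries, cells were crosslinked in 2 steps, 20 min in 2 mM disuccinimidyl glutarate and 10 min in 1% formaldehyde. The MYC libraries had the formaldehyde step alone. Without replicate libraries, no difference below carries a test, and the intervals are exact (Clopper-Pearson) 95% intervals that cover counting error only and treat neighbouring genes as independent.

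The lists held 13172 (MED17), 12040 (MED30), 14331 (parental MYC), 7158 (no doxycycline) and 4621 (doxycycline) peaks. The genome-wide background, the number of fragments expected at a position with no enrichment, was 1.60 to 2.56 in the parental libraries, 0.310 without doxycycline and 0.186 with it, so the shMED30 libraries were the shallow ones. Of 6 epithelial markers, 3 had peaks of both Mediator subunits (KRT8, KRT18 and KRT19), as did VIM and ZEB1 of 3 mesenchymal markers. The annotated spans of KRT8 and KRT18 overlap and their folds were the same, so they do not stand for separate sites. EPCAM, CDH1 and KRT7 had none, and neither did any of the acinar (5), immune (3), endothelial (3) and testis germ line (4) markers examined, nor CDKN2A, a gene known to be deleted in this line, in any of the 5 lists.

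Histone genes of this class are transcribed mainly while DNA is replicated, and their RNAs end in a stem-loop and not in a poly(A) tail. They are very short, mostly without introns, and packed in clusters where an H2A and an H2B gene often face away from a shared promoter. NPAT, a coactivator that cyclin E and CDK2 phosphorylate, gathers at the clusters in a nuclear compartment called the histone locus body. In these data 62 of the 70 genes were 386 to 797 bp long. The other 8 carried longer annotated spans, so 1 of their 2 gene ends can lie far from the coding part: H2BC4, H2BC5, H2BC12, H2BC18, H2BC21, H3C4, H3C6 and H4C15.

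The sequences below are the 250 bases before and 50 bases from the gene start of 4 promoters, from RefSeq (GRCh38.p14), written 5′ to 3′ on the strand of the gene. The first is of a gene that shares the strongest MYC peak of the set with its neighbour H2AC25 (H2BC26, chr1:228457853-228458152, plus strand). That MYC summit lies inside H2AC25, outside the printed bases. Next is a shared H2A/H2B promoter with MED30 among its strongest sites by fold (H2BC8, chr6:26216639-26216938, minus strand). The summits of both subunits there lie inside H2AC8, outside the printed bases. A linker histone promoter with both subunits (H1-3, chr6:26234938-26235237, minus strand) stands beside one without any peak (H1-6, chr6:26108086-26108385, minus strand). The H1-3 MED17 summit lies inside the gene, outside the printed bases. Capitals mark matches, on either strand, to TATAAA, to CCAAT or to the octamer ATTTGCAT.
H2BC26: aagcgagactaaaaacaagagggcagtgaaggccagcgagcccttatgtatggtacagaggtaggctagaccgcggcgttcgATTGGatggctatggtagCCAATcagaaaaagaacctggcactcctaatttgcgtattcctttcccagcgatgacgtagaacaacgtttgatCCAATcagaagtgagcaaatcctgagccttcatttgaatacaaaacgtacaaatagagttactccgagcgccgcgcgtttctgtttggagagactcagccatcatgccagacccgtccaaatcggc
H2BC8: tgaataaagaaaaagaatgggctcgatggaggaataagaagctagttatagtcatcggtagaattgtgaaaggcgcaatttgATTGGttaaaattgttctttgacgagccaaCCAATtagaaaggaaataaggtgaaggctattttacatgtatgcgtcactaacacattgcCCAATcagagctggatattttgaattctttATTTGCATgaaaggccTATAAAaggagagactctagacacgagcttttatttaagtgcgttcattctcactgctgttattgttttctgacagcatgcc
H1-3: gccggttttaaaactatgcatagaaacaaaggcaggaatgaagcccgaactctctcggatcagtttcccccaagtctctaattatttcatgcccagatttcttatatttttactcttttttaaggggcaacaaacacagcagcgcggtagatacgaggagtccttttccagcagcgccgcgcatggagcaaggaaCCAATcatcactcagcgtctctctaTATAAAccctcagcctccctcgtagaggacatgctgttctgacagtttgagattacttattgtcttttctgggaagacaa
H1-6: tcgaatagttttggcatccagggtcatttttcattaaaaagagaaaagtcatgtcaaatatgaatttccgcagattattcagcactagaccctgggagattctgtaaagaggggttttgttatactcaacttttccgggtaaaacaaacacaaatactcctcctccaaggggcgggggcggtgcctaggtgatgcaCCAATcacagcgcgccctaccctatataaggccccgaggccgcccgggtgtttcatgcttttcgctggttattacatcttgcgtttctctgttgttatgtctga

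A start was matched for 64 of the 70 genes and 15842 of all protein-coding genes. H2AC12, H2BC12L, H3C11, H3C12, H4C1 and H4C3 were not matched. Searched on both strands, the palindromic E-box CACGTG, the preferred site of MYC with its partner MAX, was found in 0 of 64 histone promoters, against 8.82% of all promoters of this length. The variant CACGCG was found in 1, at H3C6 (all promoters, 14.9%). TATAAA, the core of the TATA box, was present in 42 of 64 (65.6%, all promoters 9.75%), and CCAAT in 54 (84.4%, all promoters 36.4%). CCAAT was in each H1, H2A, H2B and H3 promoter of the set, but in 3 of 13 H4 promoters. The octamer ATTTGCAT, bound by OCT1 (POU2F1), was in 14 of 18 H2B and 11 of 16 H2A promoters, in 1 of 11 H3 promoters and in 0 of 6 H1 and 0 of 13 H4 promoters, against 1.72% of all promoters. That H3 promoter, of H3C4, is also the promoter of H2AC7, which has the same annotated start. The searched motifs do not contain each other. Divergent H2A and H2B genes share most of their promoter sequence, so these counts are not over independent promoters.

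Both Mediator subunits were present at most histone genes, and MYC at few. A gene was counted as having a peak when a deposited peak lay within 1 kb of either gene end. MED17 had a peak at 56 of 70 genes (80.0%, interval 68.7 to 88.6%), against 47.9% of all protein-coding genes, and MED30 also at 56 (80.0%), against 41.7%. Both were at 55 (78.6%), against 39.0%. Parental MYC had a peak at 13 (18.6%, 10.3 to 29.7%), against 39.0%. Among genes with both subunits, 13 of the 55 histone genes (23.6%) had a parental MYC peak, against 80.0% of all 7805 such genes. All 3 proteins were at 13 histone genes (18.6%), against 31.2%. The combination of both subunits without MYC was found at 42 histone genes (60.0%) and at 7.8% of all protein-coding genes. Antibody and fixation both differed between the Mediator and MYC libraries and cannot be told apart from the protein. With only the upper 50% of each list by fold, MED17 was at 10 histone genes (14.3%, all protein-coding genes 27.3%) and parental MYC at 2 (2.86%, 21.9%). With peaks within 250 bp parental MYC was at 8 (11.4%, all protein-coding genes 33.5%).

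**Figure D1:**
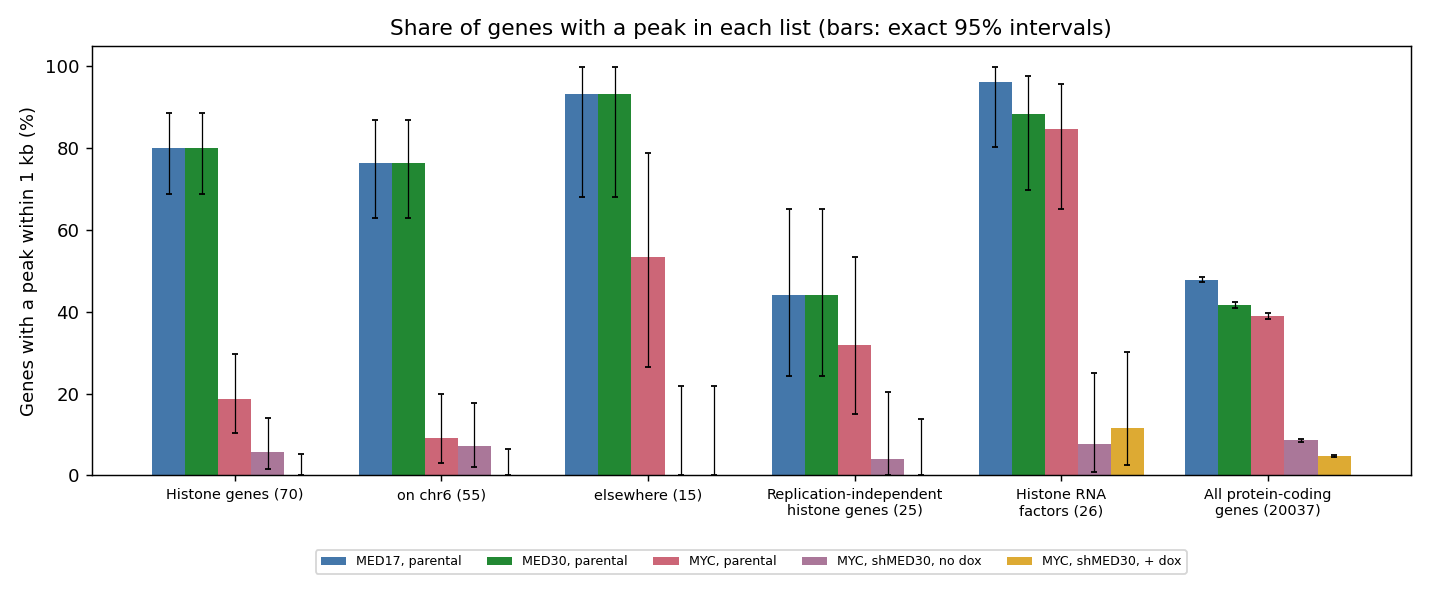
Percentage of genes with a peak within 1 kb of a gene end (vertical axis) for gene groups (horizontal axis, number of genes in brackets) in each of the 5 lists (colours), 1 library each; error bars are exact 95% intervals. In the histone genes the bars of both Mediator subunits stand at 80.0% and that of parental MYC at 18.6%, whereas over all protein-coding genes the same bars are at 47.9%, 41.7% and 39.0%.

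Many of these genes shared a peak. The 56 genes with MED17 rested on 43 peaks, 22 of which counted for more than 1 histone gene, and the 56 with MED30 on 45 peaks, 23 of them shared. With each peak given only to the nearest protein-coding gene, MED17 was at 41 histone genes and MED30 at 43. Each MYC count rested on few sites, with 12 parental peaks behind the 13 genes. The peaks of the subunits lay on each other: 43 of 45 MED30 peaks overlapped a MED17 peak (all gene-end MED30 peaks, 89.9%), and 41 of 43 MED17 peaks overlapped MED30 (76.6%). All 12 MYC peaks overlapped a peak of each subunit, where the shares over all gene-end MYC peaks were 86.5% with MED17 and 77.8% with MED30.

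**Figure D2:**
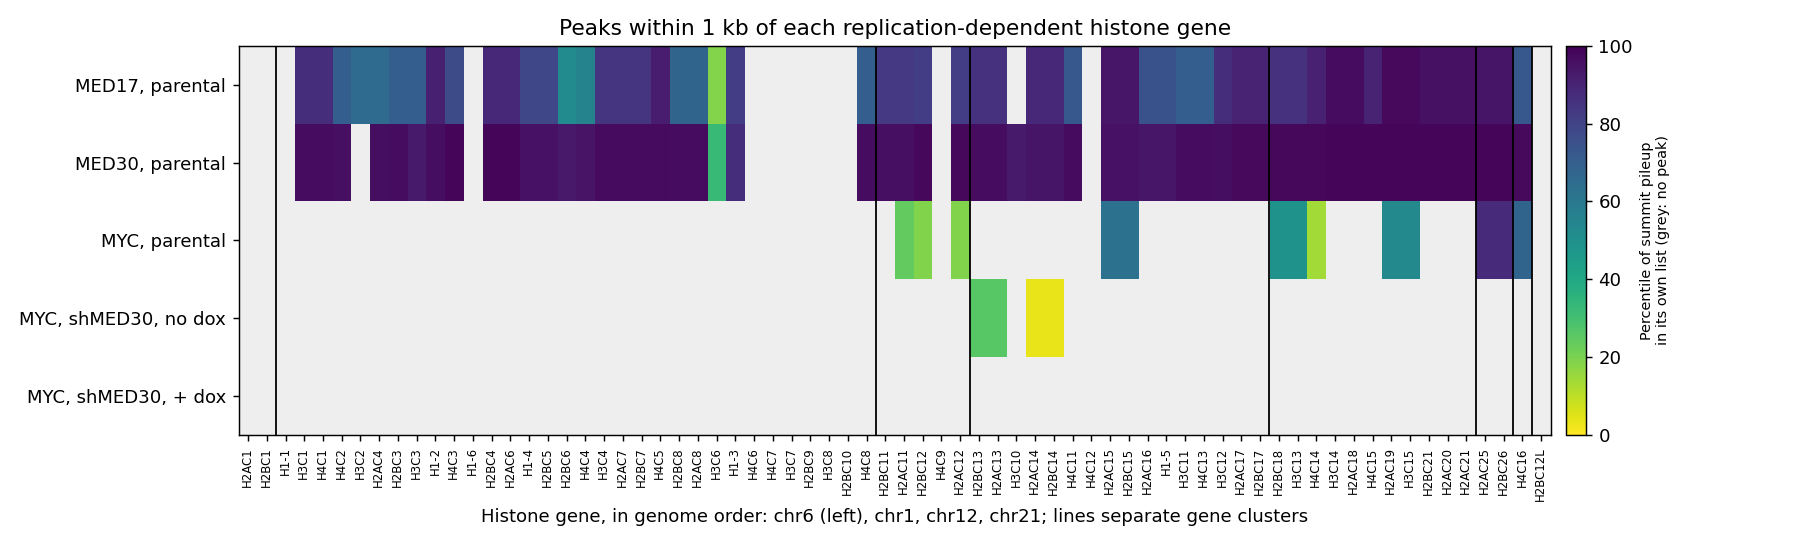
Histone genes ordered by position, with chromosome 6 placed first and then chromosomes 1, 12 and 21 (horizontal axis; vertical lines separate clusters), against the 5 lists (vertical axis); colour gives the percentile, within its own list, of the highest summit pileup at the gene, and grey means no peak. The rows of MED17 and MED30 are filled at 56 genes each, parental MYC at 13, of which 8 lie to the right of the chromosome 6 genes, and the doxycycline row at 0.

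The linker histones, which bind DNA between nucleosomes, had Mediator without MYC where they had any peak. H1-2 had folds of 4.56 (MED17) and 5.14 (MED30), H1-3 of 5.84 and 5.48, H1-4 of 3.79 and 4.56, and H1-5 of 3.50 and 3.39, each for the peak over the gene's own start. Within 1 kb of the other end of H1-4 and H1-5 lay stronger MED30 peaks, of 4.82 and 4.39, with summits at the starts of H2BC5 and H2AC16. Fold is the authors' enrichment of the peak summit over local background, and is compared only within a list. H1-1 and H1-6, the latter a testis histone, had no peak in any list. H1-3 was 1 of 4 histone genes that ranked higher in the MED17 list (percentile 72.4 by fold) than in the MED30 list (68.0).

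Of the H2A genes, 16 of 17 had both subunits, and of the H2B genes 15 of 19, shares of 94.1% and 78.9% against 39.0% of all protein-coding genes. H2A and H2B form the dimers at the faces of the nucleosome. The MED30 fold over the gene's own start, known for 15 bound genes of each family, ran from 3.40 to 10.6 (median 5.27) for H2A and from 4.41 to 10.6 (median 5.44) for H2B. Of 13 divergent gene pairs with starts 194 to 979 bp apart (median 236 bp), 11 had a single MED17 peak and a single MED30 peak over both starts, and 0 had a MYC peak over both. Covering both starts depends on peak width, so these counts do not compare placement. Median widths at histone genes were 1238 bp (MED17), 1033 bp (MED30) and 314.5 bp (parental MYC). No share over all divergent gene pairs was computed. H3C4 and H2AC7 have the same annotated start, so their 2 pairings with H2BC7 rest on the same sites. The remaining pairs were H2AC1/H2BC1, which are testis histone genes, and H3C7/H2BC9, and these had no peak in any list. H2BC10 and H2BC12L had none either.

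H3 and H4 form the tetramer at the centre of the nucleosome. MED17 and MED30 were each at 10 of 13 H3 genes (76.9%, all protein-coding genes 47.9% and 41.7%). H3C2 carried MED17 alone (fold 2.67), the single histone gene to do so (all protein-coding genes with MED17 and not MED30, 8.93%), and H3C10 carried MED30 alone (3.05; the reverse case, 2.7%). Over the starts of the 8 bound H3 genes with a known start, MED30 folds ran from 3.05 to 7.78, with a median of 4.03. Among them, H3C4 shares its annotated start with H2AC7, so its fold of 4.49 is also that of H2AC7. The highest peaks near several H3 genes had their summits at other histone genes: the peak of 7.78 near H3C13 at the H2BC18 start, that of 7.26 near H3C15 at the H2AC19 start, and one of 6.47 near H3C14 at the H2AC18 start, where the peak over the H3C14 start itself was 3.06. Both subunits were at 11 of 15 H4 genes (73.3%, all protein-coding genes 39.0%), with MED30 folds of 5.28 to 12.3 and a median of 6.94. The highest Mediator fold of the whole set was at H4C3 (chr6:26103933-26104337), at 12.3 for MED30 (percentile 99.1 of its list) and 6.91 for MED17 (88.7), and H4C3 had no MYC peak. H4C15 (MED30 fold 9.32), H4C8 (8.33), H4C14 (8.14) and H4C11 (7.86) followed among the H4 genes. H4C6, H4C7, H4C9 and H4C12 had no peak.

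The genes without a peak were not spread evenly. In all 13 had none in any list (18.6%, all protein-coding genes 47.5%), and 6 of them were neighbours on chromosome 6: H4C6, H4C7, H3C7, H2BC9, H3C8 and H2BC10, over 33.0 kb (chr6:26240393-26273412). H1-3 before this stretch (MED30 fold 5.48) and H4C8 after it (8.33) had both subunits. H2AC1 and H2BC1 made up a cluster of their own without a peak, and H1-1, H1-6, H4C9, H4C12 and H2BC12L were single.

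Near-identical copies gave both outcomes. H4C11 (plus strand) and H4C12 (minus strand), under 10 kb apart, have promoters that differ at 5 of 300 bases (98.3% identity). H4C11 had a MED17 peak of fold 4.62 and a MED30 peak of fold 7.86 (percentile 94.4), and H4C12 had none. The promoters are shown with the differing bases in capitals (H4C11, chr6:27823842-27824141; H4C12, chr6:27831511-27831810).
H4C11: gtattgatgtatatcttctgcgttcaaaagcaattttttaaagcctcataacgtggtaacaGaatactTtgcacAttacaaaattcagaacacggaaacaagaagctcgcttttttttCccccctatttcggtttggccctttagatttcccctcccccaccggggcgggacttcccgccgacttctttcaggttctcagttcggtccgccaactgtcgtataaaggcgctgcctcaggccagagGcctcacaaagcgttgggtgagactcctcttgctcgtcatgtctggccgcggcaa
H4C12: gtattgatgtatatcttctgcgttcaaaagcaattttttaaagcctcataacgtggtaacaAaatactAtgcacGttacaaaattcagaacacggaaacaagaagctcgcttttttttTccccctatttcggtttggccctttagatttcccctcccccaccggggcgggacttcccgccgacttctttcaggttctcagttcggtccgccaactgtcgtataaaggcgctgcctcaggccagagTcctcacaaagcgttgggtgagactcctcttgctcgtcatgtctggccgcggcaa
Counted from 1 at the 5′ end of the stretch, with the H4C11 base first, the differences were G62A, T69A, A75G, C119T and G246T. On chromosome 1, H4C14 and H4C15, H3C14 and H3C15, and H2AC18 and H2AC19 have promoters without a difference over this window. Reads from such copies can be assigned to either, and how the authors placed them is not given in the sources used here. The MYC peaks at H4C14, H2AC19 and H3C15, with none at H4C15, H2AC18 and H3C14, are therefore uncertain as to copy. How mapping bears on H4C12 was not tested.

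MED30 ranked above MED17 at nearly every histone gene, and the rank of both rose when peaks were ordered by fragments and not by fold. The fold of a peak is close to (summit pileup + 1)/(local background + 1), where pileup is the number of fragments over the summit. Both terms were recovered from the deposited fold and p. By fold, the 43 MED17 peaks had a median percentile of 19.9 in their list and the 45 MED30 peaks one of 63.5. By pileup these medians were 82.0 and 96.4. In the top 10% of the list by pileup stood 41 of the 45 MED30 peaks (all gene-end MED30 peaks, 9.77%) and 8 of the 43 MED17 peaks (9.83%). In the top 10% by fold stood 9 (9.73%) and 0 (9.51%).

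**Figure D3:**
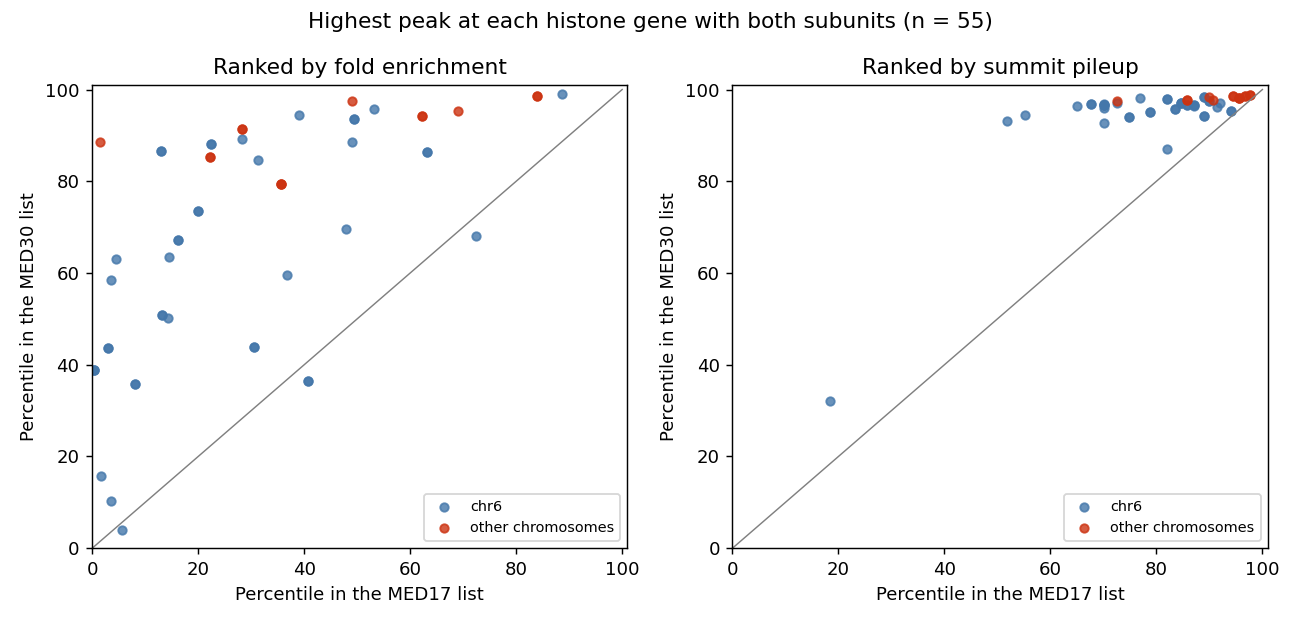
Percentile of the highest peak at each of the 55 histone genes with both subunits, in the MED17 list (horizontal axis) and the MED30 list (vertical axis), by fold (left) and by summit pileup (right); blue is chromosome 6, red the other chromosomes, and the line marks equal rank. Points lie above the line at 51 genes on the left and at 55 on the right.

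The local background at these peaks was high. Its median was 7.98 fragments at the MED17 peaks and 10.4 at the MED30 peaks, against 3.88 and 3.47 over all gene-end peaks of those lists. Median summit pileups were 35 against 24 for MED17, and 61 against 21 for MED30. The peaks were also wide, with medians of 1238 bp (MED17, all gene-end peaks 847 bp) and 1033 bp (MED30, 701 bp). By the highest fold within 1 kb of each gene, a neighbour's peak included, MED30 had the higher percentile at 51 of 55 histone genes with both subunits (92.7%), against 49.3% of all genes with both. By pileup it did so at 55 of 55, against 41.8%. Whether the neighbouring peaks of the clusters raise the local background was not tested.

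MED30 summits lay at the gene starts, and MED17 and MYC summits more to the side. Of 51 histone genes with a MED30 peak and a known start, the nearest summit fell between 250 bp before and 50 bp after the start at 36 (70.6%), with a median distance of 54 bp. For MED17 this held at 15 of 51 (29.4%), with a median distance of 300 bp. Over all protein-coding genes with a peak the shares were 47.8% for MED30 and 9.34% for MED17, with median distances of 145 bp and 286 bp. The MED17 distance at histone genes was thus close to that over all genes. The start itself was inside the peak at 51 of 51 genes for MED30 (all genes 79.7%) and at 50 of 51 for MED17 (65.0%). For parental MYC it was inside the peak at 3 of 12 genes (66.5%), and the median distance was 438 bp, against 199 bp over all genes with a MYC peak. Whether a start lies inside also depends on peak width. The MYC peaks here had a median width of 314.5 bp, against 559 bp over all gene-end MYC peaks.

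**Figure D4:**
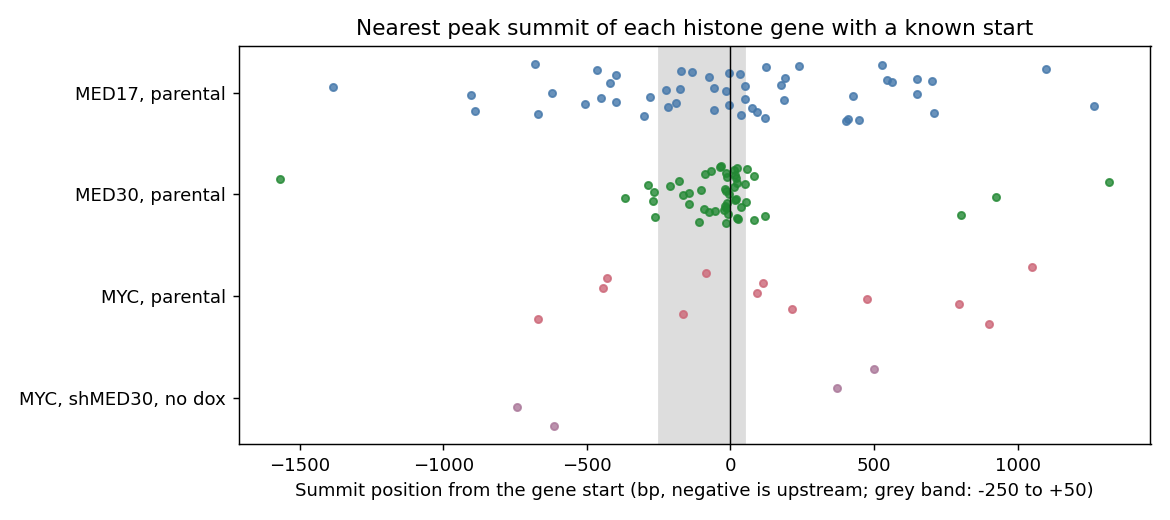
Position of the nearest peak summit relative to the gene start (horizontal axis, bp; negative is upstream) for histone genes with a known start, in 4 lists (rows); each point is a gene, the vertical spread only separates points, and the grey band runs from 250 bp before to 50 bp after the start. MED30 points crowd in the band (36 of 51), MED17 points are spread (15 of 51 inside), and 2 of 12 parental MYC points are inside.

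MYC was at histone genes outside chromosome 6 more often than on it. Parental MYC peaks were found at 5 of 55 chromosome 6 genes (9.09%, 3.02 to 20.0%), against 34.7% of the other protein-coding genes of that chromosome. Parental MYC was at 7 of 13 histone genes on chromosome 1 (53.8%, 25.1 to 80.8%) and at H4C16. The share over all protein-coding genes, 39.0%, lies inside the chromosome 1 interval. MED17 and MED30 were each at 42 of 55 genes on chromosome 6 (76.4%; other protein-coding genes of that chromosome, 40.2% and 36.6%) and at all 13 on chromosome 1 and H4C16. The largest cluster, 32 genes from H1-1 to H4C8 over 269 kb of chromosome 6, had 21 MED17 peaks, 20 MED30 peaks and 0 MYC peaks at its histone genes. The cluster from H2BC11 to H2AC12 had MYC at 3 of 5 genes (60%), and that from H2BC13 to H2BC17 at 2 of 16 (12.5%). On chromosome 1, MYC was at 5 of 11 genes from H2BC18 to H2AC21 (45.5%, all protein-coding genes 39.0%) and at both H2AC25 and H2BC26. The counts depended on how a peak is given to a gene. With each peak given only to the nearest protein-coding gene, 1 gene on chromosome 6 and 3 elsewhere had all 3 proteins, against 5 and 8. In that setting MYC itself was at 11 genes, against 13.

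Summit pileups of Mediator at the genes also differed by place. The highest summit pileup at a gene was 74 to 126 for MED30 (median 92) at the 14 bound genes outside chromosome 6, against 17 to 97 (median 62) at the 42 on it, so the ranges overlapped. For MED17 it was 30 to 64 (median 51.5) against 15 to 49 (median 35). By highest fold the medians were 7.26 outside chromosome 6 against 5.28 on it for MED30, and 4.52 against 3.92 for MED17. Pileup was not corrected for DNA copy number, which was not analysed here. Genes that share a peak enter these medians separately. Read placement is uncertain here too for the chromosome 1 copies with identical promoters (H4C14 and H4C15, H3C14 and H3C15, H2AC18 and H2AC19). H3C6 was lowest on chromosome 6 in both lists, at 15 (MED17) and 17 (MED30).

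Outside chromosome 6 the highest folds within 1 kb were shared by neighbours. H2BC18 and H3C13 had 5.39 (MED17) and 7.78 (MED30), H3C14 and H2AC18 had 4.08 and 6.47, and H2AC19 and H3C15 had 4.27 and 7.26. H2BC21, H2AC20 and H2AC21 had 4.52 and 6.04. The H4 genes stood alone, with 5.69 and 8.14 at H4C14, 4.95 and 9.32 at H4C15, and 2.91 and 6.81 at H4C16. In each of these, MED30 had the higher percentile in its list.

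The strongest MYC peak was at the divergent pair H2AC25 and H2BC26 (chr1:228457364-228458558). It spanned chr1:228457281-228457921, with a fold of 5.83 (percentile 77.2) and 44 fragments at a summit 215 bp inside H2AC25. Another MYC peak, of fold 3.12, lay past the end of H2BC26. The same pair had the next highest MED30 fold after H4C3 of the set, at 10.6 (percentile 98.6), and a MED17 fold of 6.49 (84.0). Neither shMED30 list had a MYC peak there.

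The other MYC peaks were weak, and few summits lay in the promoter window. Of the 12 histone genes with a parental MYC peak and a known start, 2 (16.7%) had their nearest summit between 250 bp before and 50 bp after it. Over all protein-coding genes with such a peak the share was 37.1%. The 12 parental peaks had folds of 3.12 to 5.83 with a median of 3.44 (percentile 14.2), and 1 of them was above the median of its list, 4.48. Their pileups were 15 to 44 over local backgrounds of 3.93 to 7.11, a median percentile of 50.8 by pileup, and 0 of 12 were in the top 10% by fold (all gene-end MYC peaks, 9.09%) or by pileup (8.64%). At H2AC15 and H2BC15 there were peaks of fold 4.07, 887 bp downstream of the H2AC15 start and past its end, and of fold 4.14 inside H2BC15. At H2AC11 the peak (3.32) lay past the end of the gene, as did the peak at H4C16 (3.57), which also lies within 1 kb of LOC105369669. H2BC12 and H2AC12 shared a peak of 3.36 inside H2BC12. On chromosome 1, H2BC18 and H3C13 shared peaks of 3.20 and 4.16, H4C14 had one of 3.25 over its start, H2AC19 one of 3.12, and H2AC19 and H3C15 shared one of 3.52 between them.

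In the shMED30 line 4 histone genes had a MYC peak without doxycycline (5.71%, 1.58 to 14.0%), against 8.55% of all protein-coding genes, and 0 had one with doxycycline (upper limit 5.13%), against 4.71%. The 4 genes rested on 2 peaks. One, at H2BC13 and H2AC13 (chr6:27807504-27807718), had a fold of 5.13 and 6 fragments at its summit. The other, at H2AC14 and H2BC14 (chr6:27815471-27815709), had a fold of 3.53 and 4 fragments. Both lay where MED17 and MED30 had peaks in parental cells, and where the parental and doxycycline lists of MYC had none. At 0 of the 4 genes was the start inside the peak (all genes with a peak without doxycycline, 38.4%).

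So 0 of the 4 genes had a no-doxycycline peak that overlapped a doxycycline peak, against 33.5% of all genes with a peak. With 2 peaks of 6 and 4 fragments, and a median summit of 8 in the list, loss with doxycycline was not measurable at this depth. None of the 13 genes with parental MYC had a peak in either shMED30 list, both of which were shallower. MED30 levels in this line were not analysed here.

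The other genes of histone biology were near the shares over all protein-coding genes in 1 list and above them in 2. Of 25 replication-independent histone genes, which are expressed outside DNA replication or in particular tissues, 11 had MED17 (44.0%), 11 MED30 (44.0%) and 8 parental MYC (32.0%, 14.9 to 53.5%), close to the 47.9%, 41.7% and 39.0% of all protein-coding genes. The interval for MYC overlapped that of the replication-dependent set. The 7 with all 3 included H3-3A (MYC fold 5.66), H1-10 (4.44) and H2AX (4.11), while H3-3B, MACROH2A2 and CENPA, the centromeric H3, had both subunits and no MYC. 13 had no peak, among them H1-7, H1-8 and H3-4. Of the 10 genes with both subunits, 7 had MYC (70.0%), against 80.0% of all such genes and 13 of 55 in the replication-dependent set.

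Of 26 genes of the histone locus body and of histone RNA processing, 25 had MED17 (96.2%), 23 MED30 (88.5%) and 22 parental MYC (84.6%), against the same 47.9%, 41.7% and 39.0% of all protein-coding genes. Among those with both subunits MYC was at 81.8%, close to the 80.0% of all such genes. NPAT had folds of 4.73 (MED17), 5.24 (MED30) and 5.32 (MYC), and SLBP, which binds the stem-loop of histone RNAs, 6.25, 6.62 and 5.39. The highest MYC folds were at SNRPE (9.12), SRRT (8.23), NCBP1 (6.55) and SNRPB (6.55), which encode factors of RNA processing. CASP8AP2, LSM10, ERI1 and CDK2 had both subunits without MYC. MYC in the shMED30 line was at SRRT and CCNE2 without doxycycline and at SNRPD3, SNRPE and CCNE2 with it.

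Of 24 histone chaperone genes, 22 had MED17 (91.7%), 22 MED30 (91.7%) and 18 parental MYC (75%), against 47.9%, 41.7% and 39.0% of all protein-coding genes. Among those with both subunits MYC was at 81.0%, against 80.0%. NPM1 (MYC fold 11.3), IPO4 (8.58), NAP1L4 (8.20) and HIRA (7.95), which deposits a replacement H3, had all 3 proteins. ASF1A, ASF1B, HAT1 and ATRX had both subunits and no MYC, CHAF1B had MED17 alone, and DAXX had no peak. HIRA and RBBP7 had a MYC peak in both shMED30 lists, at places that did not overlap.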

How the data were processed

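Each deposited file is the peak list of 1 library, in the narrowPeak layout. MACS2, Bowtie2, Trim Galore, deepTools and the build hg38 appear in the submitters' processing notes. Versions, input controls and the handling of reads with several matches were not given in the sources used here. The authors' fold enrichment is a ratio, summit pileup over local background. Their p and q values are deposited as −log10 values, and the deposited score is a multiple of the q column. The smallest −log10 q was 1.31, 1.30 and 1.30 in the parental lists and 1.00 and 1.01 in the shMED30 lists.

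Gene ends came from RefSeq (GRCh38.p14), and strand and starts from its promoter table. For the 4 genes with 2 starts there, the start at the gene end was used. Summit pileup and local background were solved from fold and p as a Poisson tail, with 99.6% to 99.9% of the peaks of a list solved to within 0.002 on the log10 scale. The lowest local background in a list is its genome-wide background, and stands in for depth, which the lists do not give. Overlap means at least 1 bp. Clusters were split where neighbours lay over 200000 bp apart. Python 3.11.15, pandas 2.3.3 and scipy 1.17.1 were used, and the peak assignment and pileup steps were tested on simulated data. Simulated peaks lay only within 1 kb of a gene end. Simulated pileups and backgrounds stayed below the highest ones at histone genes.

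With 1 library per group there is no test over samples; the main counts are set beside the same share over all protein-coding genes. Values are given for members with MYC in the shMED30 line, the highest folds in each list, H1 genes and genes outside chromosome 6; members without a peak are named, as are up to 4 genes per class of the other lists, some of the latter singled out after their values were seen. Members and lists were chosen with earlier results of these data known. The alternatives tried were other distances, summits, gene starts, the nearest gene, q of 0.01 and the upper 50% by fold.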

Additional observations from a re-analysis of the deposited data

How the results depend on the processing

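Of 65 recomputed counts, 50 stayed within 1.5 times the reported one, among them MED30 at every setting and MED17 at all but 1. The 50 also include the 0 genes with MYC after doxycycline at every setting. Only the distance of 2 kb could have raised that 0, because the other settings keep a part of the same peaks. With peaks within 250 bp, parental MYC and all 3 proteins were each at 8 histone genes (2 on chromosome 6), and MYC without doxycycline at 2. For parental MYC this was 11.4%, against 33.5% of all protein-coding genes, and for MYC without doxycycline 2.86% against 6.01%. With a peak given to the nearest gene only, MED17 was at 41 genes and MED30 at 43, against 56 each. No share over all genes was computed for this setting. All 3 proteins were then at 4 genes (1 on chromosome 6, 3 elsewhere), parental MYC at 11 and MYC without doxycycline at 2. With a q of 0.01 or less, MYC without doxycycline was at 2 (2.86%, all protein-coding genes 7.81%). Keeping the upper 50% by fold, MED17 was at 10 genes (14.3%, all protein-coding genes 27.3%) and MED30 at 41 (58.6%, 24.1%). Parental MYC (2.86%, 21.9%) and all 3 proteins were each at 2 genes (0 on chromosome 6, 2 elsewhere). MYC without doxycycline was also at 2 (2.86%, 6.08%). MED17 was thus above the share over all genes with every deposited peak and below it with the upper 50% by fold. Among genes with both subunits, the share with MYC was 14.5% to 26.3% for histone genes and 55.5% to 81.2% for all genes over the settings with a count for all genes. No paired analysis was possible because each group holds 1 library. Depth limits the shMED30 lists most, where called summits went down to 4 and 3 fragments, against 8 to 10 in the parental lists.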

Other observations

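Few peaks inside the clusters lay away from the histone genes. In the cluster from H1-1 to H4C8, 1 of 22 MED17 peaks and 2 of 22 MED30 peaks did so. Both subunits had a peak at HFE, the hemochromatosis gene, which lies among the histone genes (folds 4.70 for MED17 and 5.13 for MED30), and MED30 had a peak of fold 2.48 with no annotated gene within 1 kb. The single parental MYC peak of that cluster (chr6:26173079-26173433, fold 3.00) was at the noncoding gene H2BC6-AS1, and the single doxycycline peak (chr6:26067111-26067312, fold 3.37) had no annotated gene within 1 kb. On chromosome 1, both subunits had a peak at LOC124904411 (folds 5.11 and 5.67), inside the annotated span of H2BC18. FCGR1A and SLC17A1, which overlap the clusters as well, had no peak at their ends in any list.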
